A study of Mus musculus with 6 samples.

Results

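The respiratory chain genes described here are the nuclear genes whose symbols begin with Nduf (complex I), Sdha to Sdhd (complex II), Uqcr (complex III), Cox4i, Cox5, Cox6, Cox7 or Cox8 (complex IV) or Atp5 (complex V), leaving out names that mark pseudogenes. They were chosen by name, and no measured ratio entered this rule, but earlier results of these data were known when it was set. In the RNA-seq table, 96 such genes were among the 53726 lines once repeated lines were removed. A mean normalized count above 50 over the 3 libraries was required, which 89 of the 96 genes and 13432 of all lines passed. The 89 genes comprised 44 of complex I, 7 of complex II, 8 of complex III, 15 of complex IV and 15 of complex V. Of these, 79 were counted by name as subunits, Cox7a2l among them. The other 10 are assembly factors named after their complex (Ndufaf, Sdhaf) or Atp5sl, which despite its name is not a subunit of ATP synthase. The complex was also taken from the name, so that Ndufa4 and Ndufa4l2 stand under complex I.

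RNA was taken from the Achilles tendon of mice at 4 weeks of age, to ask which transcripts change when Dicer, the enzyme that cuts precursors into mature miRNAs, is deleted in tendon. Control mice were Dicer f/f without Cre, ScxHt mice were ScxCre/+ Knock In:Dicer +/+, and Dicer cKO mice were ScxCre/+ Knock In:Dicer f/f. In the last 2 genotypes Cre is expressed from the locus of Scx, a tendon transcription factor, so that only the other Scx allele is intact, and cells outside the Scx lineage keep Dicer in all 3 genotypes. Each genotype had 1 library, so the spread between mice is unknown, no test was possible and no p-value is given.

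The respiratory chain carries electrons from NADH (complex I) and succinate (complex II) through coenzyme Q, complex III and cytochrome c to oxygen at complex IV, and complex V uses the proton gradient made on the way to produce ATP. Most of its subunits are encoded in the nucleus, while the mitochondrial genome encodes the rest, and several complex IV subunits exist as a widely expressed form and a form of striated muscle. Oxidative muscle fibres are known for a high content of mitochondria.

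In the Dicer cKO library the respiratory chain genes were mostly higher than in the Control library, and in the ScxHt library mostly lower. Dicer cKO was the highest of the 3 libraries for 70 of the 89 genes (78.7%) and ScxHt the lowest for 66 (74.2%), where over all lines Dicer cKO was the highest for 33.5% and ScxHt the lowest for 33.7%. The changes were small, with a median of 1.22-fold in Dicer cKO/Control and 0.857-fold in ScxHt/Control. In complex IV the largest ratios in Dicer cKO/ScxHt were those of the striated muscle isoforms Cox6a2, Cox7a1 and Cox8b. In bulk tissue, fewer cells of a type and less RNA per cell cannot be told apart.

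Promoters of 4 complex IV genes are shown here because the pairs Cox8b with Cox8a and Cox7a1 with Cox7a2 each set a muscle isoform beside its widely expressed partner. They run from 250 bases before to 50 bases after the start site in RefSeq, on GRCm38.p6, and are written 5′ to 3′ on the strand of the gene. Cox8b lies at chr7:140900397-140900696 (minus strand), Cox8a at chr19:7217567-7217866 (minus strand), Cox7a1 at chr7:30183921-30184220 (plus strand) and Cox7a2 at chr9:79759804-79760103 (minus strand). Capitals mark the E-box letters CAGCTG and the TATA-box letters TATAAA in Cox8b, and the reverse complement of the ETS letters CCGGAAG in Cox8a.
Cox8b: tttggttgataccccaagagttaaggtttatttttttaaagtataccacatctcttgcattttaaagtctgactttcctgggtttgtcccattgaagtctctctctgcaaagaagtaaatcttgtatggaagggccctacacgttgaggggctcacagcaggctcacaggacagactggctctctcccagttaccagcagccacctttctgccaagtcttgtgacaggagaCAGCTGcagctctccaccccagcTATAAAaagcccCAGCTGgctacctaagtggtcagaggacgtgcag
Cox8a: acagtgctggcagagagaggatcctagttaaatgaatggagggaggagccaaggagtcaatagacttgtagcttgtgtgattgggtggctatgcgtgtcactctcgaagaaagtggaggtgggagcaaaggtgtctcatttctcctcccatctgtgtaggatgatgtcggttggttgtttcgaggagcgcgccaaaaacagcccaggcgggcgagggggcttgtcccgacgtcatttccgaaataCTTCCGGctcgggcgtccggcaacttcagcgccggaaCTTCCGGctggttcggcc
Cox7a1: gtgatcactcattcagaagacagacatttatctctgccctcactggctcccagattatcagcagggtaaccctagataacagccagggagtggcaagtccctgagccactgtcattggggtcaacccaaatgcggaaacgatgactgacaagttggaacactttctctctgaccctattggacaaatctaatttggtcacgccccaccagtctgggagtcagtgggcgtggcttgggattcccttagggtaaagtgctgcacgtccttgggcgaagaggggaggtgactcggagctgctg
Cox7a2: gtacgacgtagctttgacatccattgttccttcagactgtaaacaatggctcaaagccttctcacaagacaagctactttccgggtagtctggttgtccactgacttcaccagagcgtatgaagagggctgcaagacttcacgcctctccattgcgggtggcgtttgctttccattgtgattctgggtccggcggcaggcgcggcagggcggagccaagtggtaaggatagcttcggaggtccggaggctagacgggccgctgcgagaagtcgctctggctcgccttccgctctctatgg
The Cox8b window held 2 E-box matches, starting 19 bases before and 17 bases after the start site. A TATA match between them started 5 bases after the start site. The window held only 2 CG pairs at a GC content of 48.3%. The Cox8a window held 2 ETS matches and 19 CG pairs at 56% GC. None of the letters searched were in the windows of Cox7a1 (7 CG pairs, 53% GC) or Cox7a2 (20 CG pairs, 56.7% GC), and the window of the striated muscle isoforms held fewer CG pairs in both pairs.

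Such windows were at hand for 74 of the 89 genes and for 8986 of the measured genes, and were searched on both strands, counting matches that overlap. Both GCATGCGC, the letters of the nuclear respiratory factor NRF1, and AAGGTCA, those of the estrogen-related receptors, are linked to genes of respiration. The NRF1 letters were in the windows of 11 of the 74 genes (14.9%), of 6.14% of measured genes and of 3.05% of all 27025 genes with a window. The AAGGTCA letters were in 7 (9.46%), against 3.62% of measured and 5.38% of all genes. The ETS letters were in 19 (25.7%, against 19.9% and 9.93%), and the YY1 letters AAGATGG in 12 (16.2%, against 8.39% and 7.28%). The E-box letters CAGCTG, bound by myogenic factors, were in 6 windows (8.11%, against 18.2% and 18.3%). The TATA letters were in 7 windows (9.46%, against 9.05% and 15.7%), and the MEF2 letters TAAAAATA in 0 of the 74, against 1.64% and 3.09%. A match is a description of the sequence and no evidence of binding.

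The libraries held 16244232 (Control), 15769301 (ScxHt) and 14959399 (Dicer cKO) counts. Dicer1 had 1919, 2025 and 1621 reads, and the Dicer cKO/Control ratio was 0.886, with a 95% counting interval of 0.829 to 0.947. Its reads were counted over the whole gene, in cells with and without Cre. Scx had 1055, 686 and 371 reads. All 12 tendon fibroblast markers were measured, Col1a1 with 1261322 reads in the Control library. Together they held 13.8% of the counts in Control, 12.4% in ScxHt and 8.02% in Dicer cKO. Such a sum weights each marker by its reads. Although it was lower in ScxHt than in Control, 8 of the 12 markers had a ScxHt/Control ratio above 1 (66.7%, all lines 50.1%). Markers of skeletal muscle were also abundant, which is taken up below beside the respiratory chain genes. All counts below were divided by size factors, and each ratio has an exact 95% interval that covers counting error only.

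The 96 genes together held 61871 reads in Control, 55378 in ScxHt and 76519 in Dicer cKO. In summed normalized counts, the 89 genes came to 61550 in Control, 52101 in ScxHt and 79841 in Dicer cKO. The sum was thus 1.30-fold in Dicer cKO/Control and 0.846-fold in ScxHt/Control.

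Levels were compared between genes in RPKM, which divides by a length per gene. The lengths implied by the deposited RPKM, such as 5641 bases for Ndufb2 and 6442 for Atp5l, were not checked against transcripts. Levels between genes and isoform shares per length depend on them. RPKM scales the libraries by their totals and not by the size factors used for the ratios. Atp5b, the catalytic beta subunit of ATP synthase, had the highest RPKM in all 3 libraries, with 169 in Control, 157 in ScxHt and 249.7 in Dicer cKO. Atp5a1, the alpha subunit of the same catalytic head, followed in Control with 76.6 and in Dicer cKO with 106, and was the third in ScxHt with 70.7. Ndufa4l2 held the third place in Control with 67.1 and the second in ScxHt with 76.3. In Dicer cKO the third place was that of Cox8b, with 105.

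The 5 highest in each library were completed by Ndufv2, an iron-sulfur subunit of complex I, and by Uqcrfs1, the Rieske iron-sulfur protein of complex III, in Control and Dicer cKO. Ndufv2 had 59.3, 56.4 and 81.3 RPKM in Control, ScxHt and Dicer cKO, and Uqcrfs1 57.9, 44.9 and 81.2. In ScxHt, Ndufa2, an accessory subunit of complex I, took the place of Uqcrfs1 with 61.0 RPKM. Neighbours in this order, such as Ndufv2 and Uqcrfs1, differed by little, and with 1 library their order has no error beyond counting. The median RPKM of the subunits was 17.4 in Control, 17.2 in ScxHt and 21.6 in Dicer cKO. By complex, the Control median ran from 12.1 in complex I to 30.2 in complex III.

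**Figure D1:**
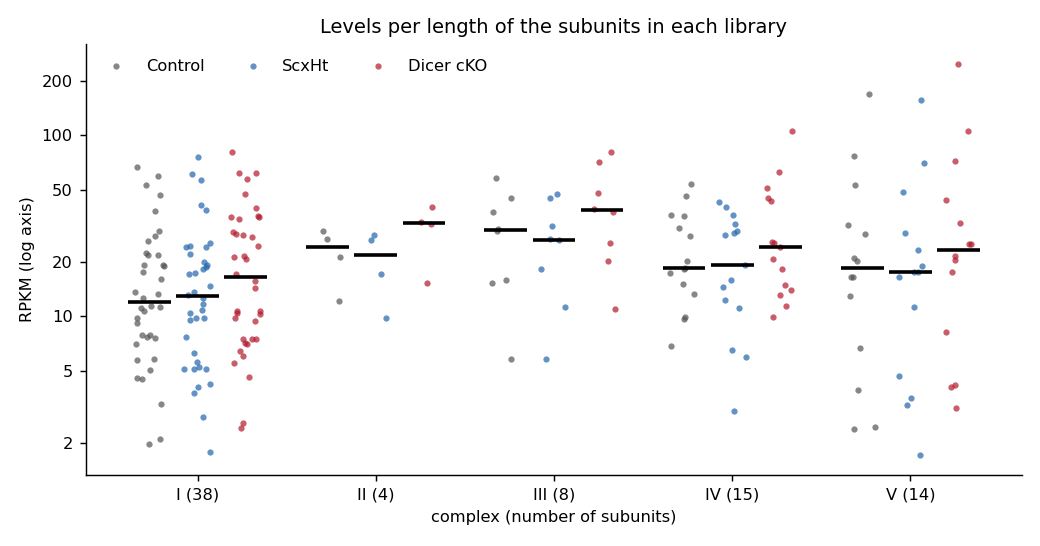
RPKM (log axis) of the 79 subunits in each complex, with 1 point per gene and library and a line at the median. The 5 medians of Dicer cKO lie above those of Control and ScxHt, from 16.5 in complex I to 38.6 in complex III, and the highest point in each library is Atp5b. The ScxHt median lies above that of Control in complexes I (12.9 and 12.1) and IV (19.3 and 18.6), and below it in complexes II, III and V.

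For Dicer cKO/Control, the ratio was above 1 for 75 of the 89 genes, beside 47.3% of all 13432 lines. The counting interval lay above 1 for 55 genes (all lines 22.6%) and below 1 for 3 (all lines 27.1%). Genes were counted as higher above a log2 ratio of 0.74 and as lower below a ratio of 0.60, a log2 ratio of -0.74. Only 4 of the 89 passed the upper limit (all lines 4.02%), a share near that of all lines, and 0 the lower limit (all lines 4.05%). The median log2 ratio was 0.29, beside -0.02 for all lines.

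For ScxHt/Control, the picture was turned around. The ratio was above 1 for 19 of the 89 genes, beside 50.1% of all lines. The interval lay above 1 for 5 genes (all lines 24.8%) and below 1 for 44 (all lines 25.3%). The upper limit was passed by 0 of 89 genes (all lines 2.8%), and 2 were below 0.60 (all lines 4.97%). The median log2 ratio was -0.22, beside 0.00 for all lines. Scaled by total counts, where 64.5% of all lines had a ratio above 1 and their median moved to 0.12, the ratio was above 1 for 33 members and the members' median was -0.10.

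The comparison of the Cre carriers, Dicer cKO/ScxHt, shares a library with each of the others. The ratio was above 1 for 77 of the 89 genes, beside 46.9% of all lines. The interval lay above 1 for 65 (all lines 25.3%) and below 1 for 5 (all lines 29.9%). Here 19 genes passed the upper limit (all lines 7.65%) and 0 were below 0.60 (all lines 5.55%), with a median log2 ratio of 0.59, beside -0.03 for all lines.

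The 79 subunits had median log2 ratios of 0.35 in Dicer cKO/Control, -0.22 in ScxHt/Control and 0.61 in Dicer cKO/ScxHt. The 10 other genes had medians of 0.00, -0.23 and 0.19, and in Dicer cKO/Control the ratio of 5 of them was above 1 (50%, all lines 47.3%). Only 1 of the 10 had an interval above 1 there (all lines 22.6%). That was Ndufaf4, an assembly factor of complex I, with 472 reads in Control, 444 in ScxHt and 565 in Dicer cKO and a ratio of 1.26 (1.11 to 1.42). It is named after its values were seen.

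**Figure D2:**
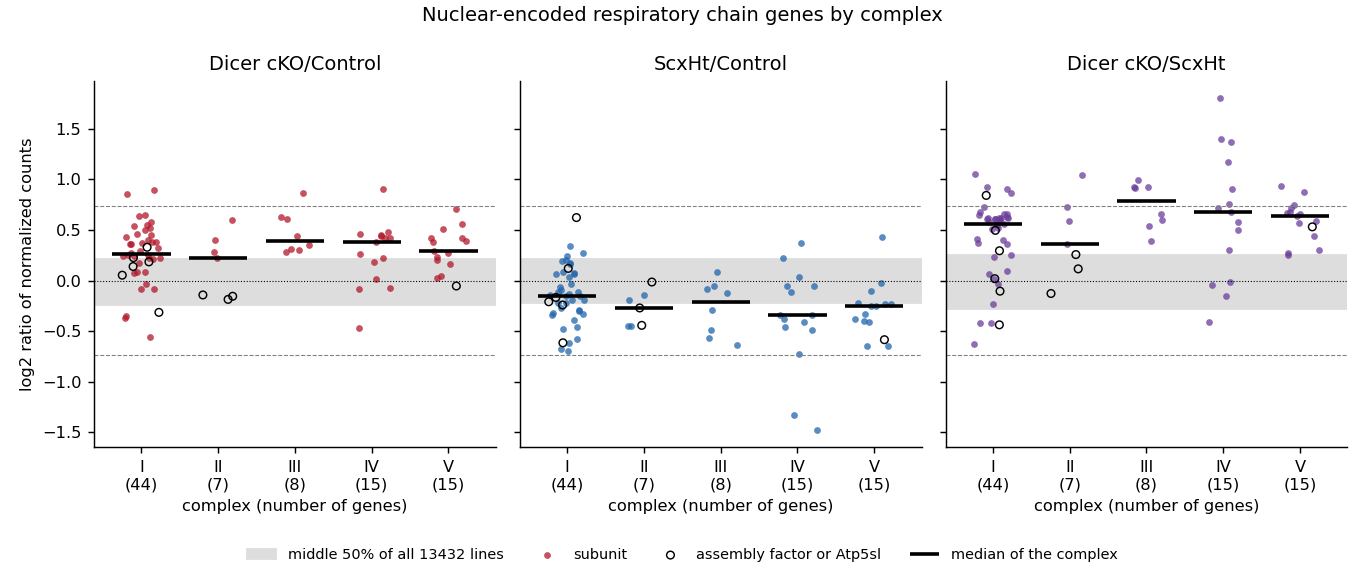
Log2 ratios of normalized counts of the 89 genes by complex in the 3 comparisons, with 1 point per gene, a thick line at the median of each complex, a grey band for the middle 50% of all lines and dashed lines at log2 ratios of 0.74 and -0.74. All 5 medians lie above 0 in Dicer cKO/Control (0.22 to 0.39) and below 0 in ScxHt/Control (-0.34 to -0.15).

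Complex I takes electrons from NADH, and its 44 genes had a median log2 ratio of 0.26 in Dicer cKO/Control, -0.15 in ScxHt/Control and 0.56 in Dicer cKO/ScxHt. The interval of Dicer cKO/Control lay above 1 for 22 of them (50%, all lines 22.6%) and below 1 for 2 (4.55%, all lines 27.1%). The 7 core subunits encoded in the nucleus, which hold the flavin and iron-sulfur clusters or bind quinone, had medians of 0.36, -0.22 and 0.62.

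Ndufs8, an iron-sulfur core subunit, had the highest Dicer cKO/Control ratio of complex I. It had 175 reads in Control, 208 in ScxHt and 311 in Dicer cKO, so that Dicer cKO was the highest and Control the lowest library. Its ratios were 1.86 (1.54 to 2.26) in Dicer cKO/Control and 1.13 (0.916 to 1.38) in ScxHt/Control. Ndufa5, an accessory subunit, came next with 318, 398 and 548 reads. Its Dicer cKO/Control ratio was 1.81 (1.57 to 2.08), and its ScxHt/Control ratio of 1.19 (1.02 to 1.38) was 1 of the 5 with an interval above 1.

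The largest core subunit, Ndufs1, also an iron-sulfur protein, had 2107 reads in Control, 1492 in ScxHt and 2516 in Dicer cKO. The ScxHt library stood low, with ratios of 1.25 (1.18 to 1.33) in Dicer cKO/Control and 0.671 (0.627 to 0.717) in ScxHt/Control. The flavin-binding subunit Ndufv1 had 789, 795 and 1101 reads. Only Dicer cKO stood apart for it, with ratios of 1.46 (1.33 to 1.61) and 0.954 (0.864 to 1.05). Ndufv2 had 1918, 1769 and 2420 reads. It was highest in Dicer cKO and lowest in ScxHt, and its Dicer cKO/Control ratio was 1.32 (1.25 to 1.41). Ndufs7, which helps to form the quinone site, had a ratio of 1.28 (1.16 to 1.42). Ndufs3 was the exception among the core subunits, with 250, 216 and 232 reads and a Dicer cKO/Control ratio of 0.974 (0.811 to 1.17).

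The lowest ratios of complex I were those of Ndufa4l2 and Ndufa1. Ndufa4l2, a paralog of Ndufa4 that is known to be induced by hypoxia, had 1194 reads in Control, 1318 in ScxHt and 773 in Dicer cKO. Dicer cKO was thus the lowest library, against the direction of most members, with ratios of 0.679 (0.620 to 0.744) in Dicer cKO/Control and 1.05 (0.966 to 1.13) in ScxHt/Control. Ndufa1, a small membrane subunit, had only 91, 87 and 67 reads and an interval of 0.555 to 1.07 around its Dicer cKO/Control ratio of 0.772. Ndufa13, also known as GRIM-19 and named after its values were seen, had 187, 207 and 140 reads and a ratio of 0.785 (0.626 to 0.983).

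Against ScxHt, 5 of the 44 genes of complex I (11.4%, all lines 7.65%) passed the upper limit in Dicer cKO. They were Ndufb3 (2.08), Ndufb9 (1.89), Ndufs1 (1.87), Ndufa4 (1.82) and the assembly factor Ndufaf6 (1.79). Ndufb3 and Ndufb9 are accessory subunits of the membrane arm. Ndufb3 had 95 reads in Control, 63 in ScxHt and 118 in Dicer cKO. Ndufb9 had 467, 358 and 611 reads. For each of these genes ScxHt was the lowest and Dicer cKO the highest library.

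Complex II, the succinate dehydrogenase of the citric acid cycle, has no subunit encoded in mitochondria. Its 4 subunits all had a Dicer cKO/Control interval above 1 (all lines 22.6%), and their median log2 ratios were 0.34, -0.32 and 0.66 in the 3 comparisons. The iron-sulfur subunit Sdhb had 779 reads in Control, 604 in ScxHt and 1120 in Dicer cKO. Its ratios were 1.51 (1.38 to 1.65) in Dicer cKO/Control, 0.734 (0.659 to 0.818) in ScxHt/Control and 2.05 (1.86 to 2.27) in Dicer cKO/ScxHt.

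The flavoprotein Sdha had 1975, 1830 and 2482 reads, and a Dicer cKO/Control ratio of 1.32 (1.24 to 1.40). The membrane anchors Sdhc and Sdhd had ratios of 1.22 (1.09 to 1.35) and 1.17 (1.04 to 1.31), and ScxHt was the lowest library for all 4 subunits. The assembly factors Sdhaf1, Sdhaf2 and Sdhaf3 were not higher in Dicer cKO than in Control, unlike the subunits. In ScxHt/Control, Sdhaf1 at 0.736 (0.572 to 0.945) and Sdhaf2 at 0.829 (0.711 to 0.967) were low like the subunits. Sdhaf3 was at 0.990 (0.696 to 1.41) there. Sdhaf1, with 148 reads in Control, 115 in ScxHt and 124 in Dicer cKO, and Sdhaf2, with 361, 316 and 309, had Dicer cKO/Control ratios of 0.879 (0.687 to 1.12) and 0.898 (0.769 to 1.05).

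Complex III passes electrons from coenzyme Q to cytochrome c. It was the only complex in which the interval of Dicer cKO/Control lay above 1 for every gene, 8 of 8 (all lines 22.6%). The median log2 ratios were 0.39, -0.21 and 0.78. Uqcr11, a small subunit, had 61 reads in Control, 59 in ScxHt and 106 in Dicer cKO. Its Dicer cKO/Control ratio was 1.82 (1.32 to 2.54), with a wide interval at this depth. Uqcr10, another small subunit, had 151, 169 and 222 reads and a ratio of 1.54 (1.25 to 1.91). These small subunits were not lowest in ScxHt beyond counting error, and their ScxHt/Control intervals included 1.

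The larger subunits stood low in ScxHt. Uqcrc2, a core protein, had 1574 reads in Control, 1072 in ScxHt and 1830 in Dicer cKO, with ratios of 1.22 (1.14 to 1.31) in Dicer cKO/Control and 0.645 (0.596 to 0.697) in ScxHt/Control. Uqcrfs1 had 1282, 966 and 1655 reads and a ScxHt/Control ratio of 0.714 (0.656 to 0.776). Uqcrc1, the other core protein, had 1034, 738 and 1254 reads and a ScxHt/Control ratio of 0.676 (0.614 to 0.744). Uqcrq, a small subunit with 885, 762 and 1038 reads, had 1 of the 2 lowest Dicer cKO/Control ratios of this complex, 1.23 (1.12 to 1.35). Although small, it too was low in ScxHt, with a ScxHt/Control ratio of 0.815 (0.739 to 0.899). Against ScxHt, Uqcr11 (1.99), Uqcrfs1 (1.90), Uqcrc2 (1.89) and Uqcrc1 (1.88) passed the upper limit in Dicer cKO, 4 of the 8 genes (all lines 7.65%).

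**Figure D3:**
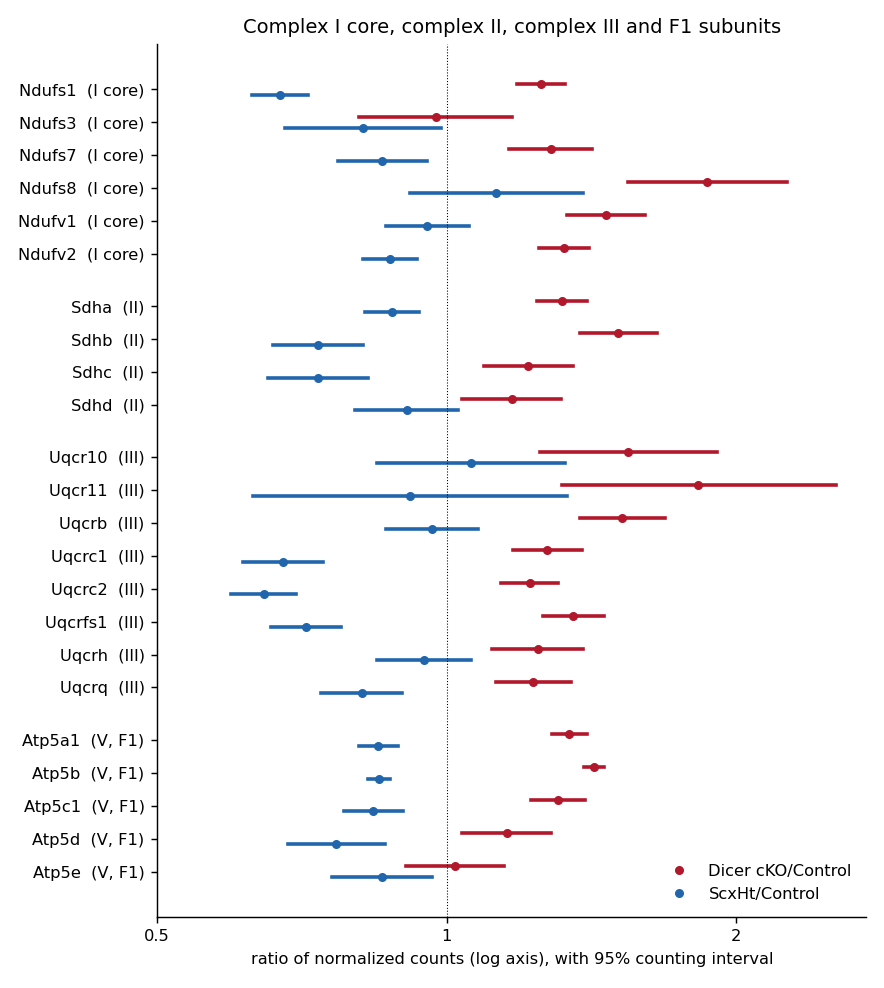
Ratios of normalized counts (log axis) with 95% counting intervals for 6 of the 7 nuclear core subunits of complex I, the 4 subunits of complex II, the 8 of complex III and the 5 of the F1 head of complex V. Dicer cKO/Control lies to the right of ScxHt/Control for all of them, and the Dicer cKO/Control interval includes 1 for Ndufs3 and Atp5e.

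Complex IV, cytochrome c oxidase, reduces oxygen to water, and its 15 genes had median log2 ratios of 0.38, -0.34 and 0.67. From its lowest to its highest gene, the range of ratios was wider than in each other complex in ScxHt/Control and Dicer cKO/ScxHt, but not in Dicer cKO/Control. The Dicer cKO/Control ratio ran from 0.723 for Cox4i2 to 1.88 for Cox8b, and the ScxHt/Control ratio went down to 0.359 for Cox7a1.

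The muscle isoforms had the largest ratios of complex IV in Dicer cKO/ScxHt, but not in each comparison. In ScxHt/Control, Cox5a at 0.604 was lower than Cox8b, and in Dicer cKO/Control, Cox7a1 was below 1. Cox8b, on chromosome 7 from 140898945 to 140900446 on the minus strand (GRCm38, GENCODE vM21), had 317 reads in Control, 244 in ScxHt and 567 in Dicer cKO. Its ratios were 1.88 (1.63 to 2.16) in Dicer cKO/Control, 0.729 (0.614 to 0.864) in ScxHt/Control and 2.57 (2.21 to 3.004) in Dicer cKO/ScxHt. The widely expressed Cox8a, whose window above had the 2 ETS matches, had 178, 243 and 198 reads and a ScxHt/Control ratio of 1.29 (1.06 to 1.58). In the ScxHt library the muscle form was thus lower and the other form higher than in Control.

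Cox7a1 had 132 reads in Control, 50 in ScxHt and 119 in Dicer cKO. Only ScxHt stood apart, with ratios of 0.946 (0.732 to 1.22) in Dicer cKO/Control and 0.359 (0.254 to 0.5003) in ScxHt/Control. Its partner Cox7a2 had 204, 166 and 185 reads and a ScxHt/Control ratio of 0.771 (0.624 to 0.950). Cox7a2l, a factor that joins complexes III and IV in supercomplexes, was nearly even, with 324, 350 and 312 reads and a Dicer cKO/Control ratio of 1.01 (0.862 to 1.18).

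Cox6a2, the isoform of heart and skeletal muscle, had 76 reads in Control, 32 in ScxHt and 101 in Dicer cKO. It had the largest Dicer cKO/ScxHt ratio of all members, 3.50 (2.33 to 5.38), and ratios of 1.39 (1.03 to 1.90) in Dicer cKO/Control and 0.399 (0.255 to 0.610) in ScxHt/Control. Its exons overlap those of Itgad on the other strand, and the strand setting of the counting is not known. Cox6a1, the widely expressed partner, had 111, 137 and 120 reads and a Dicer cKO/Control ratio of 1.13 (0.869 to 1.48). Cox6a2 and Cox7a1 were the 2 members below 0.60 in ScxHt/Control.

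As a share of the pair per length, Cox8b made up 73.0% of Cox8a and Cox8b in Control (95% exact binomial interval 69.2 to 76.6), 60.4% in ScxHt (55.9 to 64.6) and 81.3% in Dicer cKO (78.7 to 83.7). The 3 intervals did not overlap. Cox7a1 made up 53.3% of Cox7a1 and Cox7a2 in Control (47.6 to 58.8), 34.7% in ScxHt (27.5 to 42.3) and 53.2% in Dicer cKO (47.2 to 59.0). Cox6a2 made up 41.4% of Cox6a1 and Cox6a2 in Control (34.2 to 48.8), 19.4% in ScxHt (13.7 to 26.3) and 46.5% in Dicer cKO (39.8 to 53.3). In all 3 pairs the muscle form had its lowest share in ScxHt, and only for Cox8b did Dicer cKO lie above Control beyond counting error.

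The pairs with an isoform linked to low oxygen went the other way. Cox4i2 had 354 reads in Control, 360 in ScxHt and 244 in Dicer cKO, and Cox4i1, the widely expressed form, 906, 883 and 1187. The share of Cox4i2 per length was 43.5% in Control (40.4 to 46.5), 44.5% in ScxHt (41.4 to 47.6) and 28.8% in Dicer cKO (26.0 to 31.7). Dicer cKO was the low library, with a Cox4i2 Dicer cKO/Control ratio of 0.723 (0.612 to 0.854) and a Cox4i1 ratio of 1.37 (1.26 to 1.5004).

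Ndufa4l2 made up 92.1% of Ndufa4 and Ndufa4l2 in Control (90.7 to 93.4), 94.9% in ScxHt (93.8 to 95.9) and 87.0% in Dicer cKO (84.9 to 89.0). Ndufa4, which was named as a complex I subunit but is a subunit of complex IV, had 129, 89 and 146 reads. Its ratios were 1.19 (0.931 to 1.52) in Dicer cKO/Control and 0.653 (0.493 to 0.863) in ScxHt/Control. Ndufa4l2 and Cox4i2 were, with Ndufa13, the 3 members whose Dicer cKO/Control interval lay below 1.

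**Figure D4:**
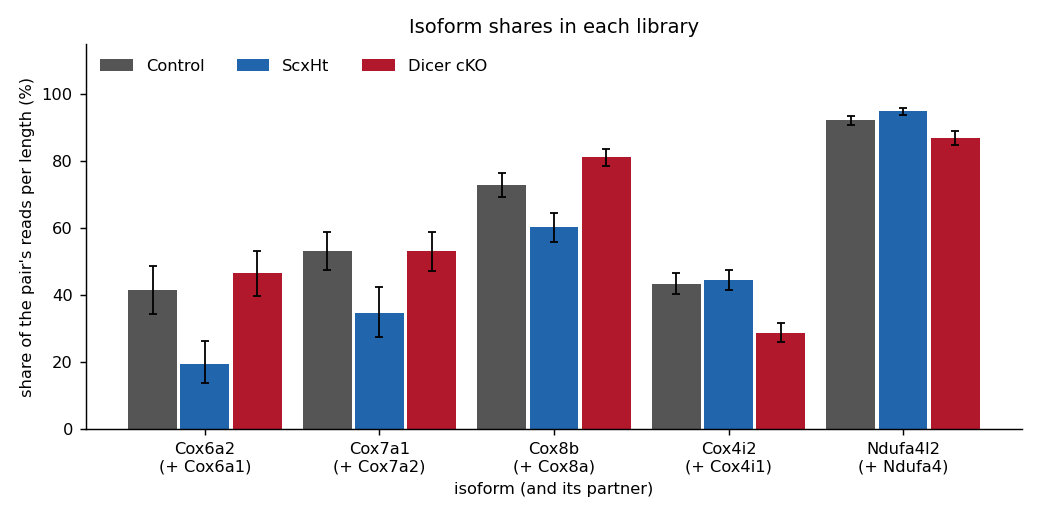
Share of the named isoform in the reads per length of its pair (%), in each library, with exact 95% binomial intervals as error bars. Cox6a2, Cox7a1 and Cox8b are lowest in ScxHt (19.4%, 34.7% and 60.4%), and Cox4i2 and Ndufa4l2 are lowest in Dicer cKO (28.8% and 87.0%).

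Other subunits of complex IV lay between these extremes. Cox5a had 340 reads in Control, 217 in ScxHt and 440 in Dicer cKO, and a Dicer cKO/ScxHt ratio of 2.25 (1.90 to 2.66). Cox6c had 1079, 815 and 1377 reads and a Dicer cKO/ScxHt ratio of 1.87 (1.72 to 2.04), and Cox7c had 338, 282 and 430 reads and a ratio of 1.69 (1.45 to 1.97). Cox6b1, which binds at the intermembrane side, had 416, 331 and 477 reads and a Dicer cKO/Control ratio of 1.20 (1.05 to 1.38). ScxHt was the lowest library for each of these subunits.

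Complex V makes ATP, and its 15 genes had median log2 ratios of 0.29, -0.25 and 0.64. Dicer cKO was the highest library for 14 of the 15 (all lines 33.5%) and ScxHt the lowest for 14 (all lines 33.7%). The 5 subunits of the F1 head had medians of 0.38, -0.24 and 0.64. Atp5b had 11663 reads in Control, 10479 in ScxHt and 15822 in Dicer cKO, the most of any member. Its ratios were 1.42 (1.39 to 1.46) in Dicer cKO/Control and 0.851 (0.829 to 0.874) in ScxHt/Control and, at a log2 ratio of 0.74, just past the upper limit in Dicer cKO/ScxHt.

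Atp5a1 had 3898, 3495 and 4984 reads and ratios of 1.34 (1.29 to 1.40) in Dicer cKO/Control and 0.849 (0.811 to 0.889) in ScxHt/Control. The central stalk subunit Atp5c1, with 1657, 1467 and 2062 reads, had nearly the same ratios, 1.31 (1.22 to 1.39) and 0.838 (0.781 to 0.900). These F1 subunits shared 1 order, with ScxHt lowest and Dicer cKO highest. The other stalk subunits were closer to Control, Atp5d at 1.15 (1.04 to 1.28) and Atp5e at 1.02 (0.907 to 1.15) in Dicer cKO/Control.

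The highest Dicer cKO/Control ratios of complex V were those of Atp5j2 and Atp5f1, both part of the Fo and stalk region. Atp5j2 had 129 reads in Control, 184 in ScxHt and 201 in Dicer cKO, with ratios of 1.63 (1.30 to 2.06) in Dicer cKO/Control and 1.35 (1.07 to 1.71) in ScxHt/Control, so that here Control was the low library. Atp5f1 had 1097, 1075 and 1543 reads and a Dicer cKO/Control ratio of 1.48 (1.36 to 1.60). The lowest were Atp5sl, with 159, 112 and 146 reads and a ratio of 0.963 (0.764 to 1.21), and Atp5e.

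The c-ring subunit of ATP synthase is encoded by 3 genes with the same mature protein. Atp5g1 had 196 reads in Control, 132 in ScxHt and 228 in Dicer cKO, with a ScxHt/Control ratio of 0.638 (0.508 to 0.799) and a Dicer cKO/ScxHt ratio of 1.91 (1.54 to 2.39). Atp5g3 had 584, 606 and 672 reads and a ScxHt/Control ratio of 0.983 (0.876 to 1.10). Atp5g2 had 106, 85 and 104 reads and a ScxHt/Control ratio of 0.759 (0.564 to 1.02). Only Atp5g1 was low in ScxHt beyond counting error. Atp5l, a subunit of the membrane part with 702, 474 and 785 reads, had a Dicer cKO/ScxHt ratio of 1.83 (1.64 to 2.06), but its pseudogenes Atp5l-ps1 (68, 53 and 109 reads) and Atp5l2-ps (229, 129 and 262 reads) also took up reads and its value is uncertain for that reason.

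The 7 genes that did not reach the minimum were Ndufaf2, Sdhaf4, Cox6b2, Cox7b2, Cox8c, Atp5k and Atp5s. Cox7b2 and Cox8c, known from testis, had 0 reads in all 3 libraries, which allows up to 3 reads each. Cox6b2, also known from testis, had 11 reads in Control, 4 in ScxHt and 10 in Dicer cKO. The genes nearest to the minimum were Ndufaf3 (mean normalized count 64.6) and Sdhaf3 (63.5) inside it, and Atp5s (49.4) and Sdhaf4 (40.2) outside it. Atp5k had 21, 39 and 56 reads and Atp5s 27, 71 and 52.

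The 13 subunits encoded by mitochondrial DNA were far more abundant, with 3.45% of the counts in Control, 2.11% in ScxHt and 4.42% in Dicer cKO. All 13 had a Dicer cKO/Control interval above 1 (all lines 22.6%) and a ScxHt/Control interval below 1 (all lines 25.3%). Their median log2 ratios were 0.29, -0.80 and 1.13, so that in Dicer cKO/Control the 89 nuclear genes (0.29) and the mitochondrial subunits had like medians, while in ScxHt/Control the mitochondrial ones were further down. For Dicer cKO/Control the lowest of them was mt-Nd4, with 39629 reads in Control, 18116 in ScxHt and 39226 in Dicer cKO and a ratio of 1.04, and the highest was mt-Nd5, with 84056, 53775 and 111620 reads and a ratio of 1.39. In ScxHt/Control 8 of the 13 were below 0.60, where 2 of the 89 nuclear genes and 4.97% of all lines were.

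The other genes that respiration needs were spread unevenly. The 13 genes of the citric acid cycle had median log2 ratios of 0.32, -0.26 and 0.70, close to those of the nuclear subunits. Sucla2, a subunit of succinyl-CoA synthetase, was the highest, with 1113 reads in Control, 1042 in ScxHt and 1658 in Dicer cKO and a Dicer cKO/Control ratio of 1.56, and Idh3g the lowest at 1.06. Of 17 genes of electron carriers and coenzyme Q synthesis, 15 were measured, with medians of 0.31, -0.23 and 0.62. Coq7, a hydroxylase of coenzyme Q synthesis, was the highest with 111, 118 and 185 reads and a ratio of 1.75, and Coq10b the lowest with 760, 480 and 442 reads and a ratio of 0.610.

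For assembly factors outside the naming rule, 28 of 34 were measured, and their medians of 0.13, -0.05 and 0.25 were smaller. Their interval of Dicer cKO/Control lay above 1 for 8 (28.6%, all lines 22.6%) and below 1 for 1 (3.57%, all lines 27.1%). Foxred1, needed to assemble complex I, was the highest at 1.74 with 199, 295 and 331 reads, and Ttc19, a complex III factor, the lowest at 0.840. The 18 genes of mitochondrial import, carriers and inner membrane structure had medians of 0.24, -0.11 and 0.29. In that list Slc25a4, the ADP/ATP carrier of muscle and heart, was the highest with 5704, 4834 and 8729 reads and a ratio of 1.61, and the import receptor Tomm20 the lowest at 0.883.

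The large subunit of the mitochondrial ribosome, with 44 of 48 genes measured, had medians of 0.29 in Dicer cKO/Control and 0.02 in ScxHt/Control. It was thus as high as the respiratory chain genes in the former comparison but not low in the latter. Mrpl11 was the highest with 56, 81 and 109 reads and a ratio of 2.04, and Mrpl10 the lowest at 0.829. The 44 cytosolic ribosomal proteins of the large subunit had medians of -0.05, 0.12 and -0.14, with Rpl24 the highest at 1.68 and Rpl38 the lowest at 0.722.

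Among regulators of mitochondrial biogenesis, 15 of 16 were measured, with medians of 0.22, -0.19 and 0.24 and a wide spread. Ppargc1a, the coactivator PGC-1 alpha, had 540 reads in Control, 347 in ScxHt and 1160 in Dicer cKO, and ratios of 2.25 in Dicer cKO/Control, 0.609 in ScxHt/Control and 3.70 in Dicer cKO/ScxHt. Ppara, a nuclear receptor of fatty acid oxidation, had the highest ratio at 2.31 on 76, 49 and 167 reads. Both followed the order of the respiratory chain genes, with ScxHt lowest and Dicer cKO highest. Esrrg, an estrogen-related receptor named after its values were seen, had 567, 261 and 868 reads and ratios of 1.61, 0.436 and 3.68. The other receptors of this family, Esrra with 144, 90 and 168 reads and Esrrb with 62, 41 and 78, had the same order, but their Dicer cKO/Control intervals, 0.974 to 1.54 and 0.933 to 1.87, included 1. They too are named after their values were seen.

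Nrf1, Gabpa and Yy1, whose letters were also searched for in the promoters, did not follow that order. Nrf1 had 567 reads in Control, 598 in ScxHt and 497 in Dicer cKO and a Dicer cKO/Control ratio of 0.920, and Gabpa, an ETS factor, 977, 1002 and 923 reads and a ratio of 0.991. Yy1 had 939, 869 and 635 reads and a ratio of 0.709. Tfam, which packs mitochondrial DNA, had 295, 311 and 395 reads and a ratio of 1.40. These 4 are named after their values were seen. Pprc1, a coactivator related to PGC-1 alpha, was the lowest of the list at 0.627.

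**Figure D5:**
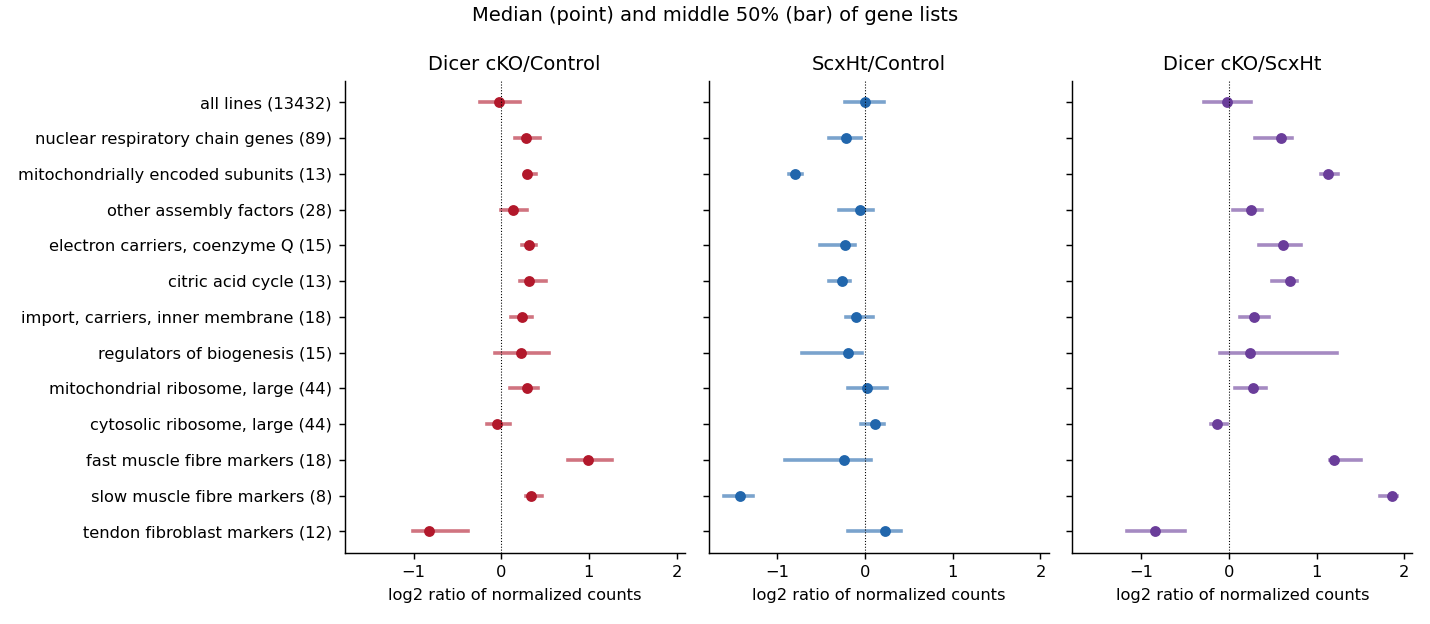
Median log2 ratio (point) and middle 50% (bar) of the nuclear respiratory chain genes and other gene lists in the 3 comparisons, with the number of genes measured. The nuclear genes lie at 0.29, -0.22 and 0.59, the slow muscle fibre markers at 0.33, -1.42 and 1.86, and the tendon fibroblast markers at -0.83, 0.23 and -0.84.

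Markers of skeletal muscle mostly went in the direction of these genes, but the fast fibre markers were mixed in ScxHt/Control. The 18 fast fibre markers summed to 6.42% of the counts in Control, 3.70% in ScxHt and 11.2% in Dicer cKO. All 18 had a Dicer cKO/Control interval above 1 (all lines 22.6%), and 13 passed the upper limit (all lines 4.02%), with a median log2 ratio of 0.99. In ScxHt/Control 13 had an interval below 1 (all lines 25.3%) and 5 above 1 (all lines 24.8%), with a median of -0.24. There 4 of the 18 passed the upper limit (all lines 2.8%) and 6 were below 0.60 (all lines 4.97%). The 8 slow fibre markers summed to 0.484%, 0.193% and 0.604%, with medians of 0.33, -1.42 and 1.86, and all 8 were below 0.60 in ScxHt/Control. Their part in the values of the respiratory chain genes was not tested.

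The markers did not all move alike. Myh7, the slow myosin heavy chain, had 40759 reads in Control, 14202 in ScxHt and 47563 in Dicer cKO, and Myh2, the myosin of fast oxidative fibres, 36924, 16146 and 69442, both in the order of most respiratory chain genes. Myh4, the myosin of fast glycolytic fibres, had 8125, 39836 and 49811 reads, so that it was lowest in Control. In ScxHt/Control its ratio was 4.64, beside 0.330 for Myh7 and 0.414 for Myh2. The summed ratio of the fast markers in Dicer cKO/Control was 1.68 and that of the slow markers 1.21, beside 1.30 for the 89 respiratory chain genes.

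Other cell types were also unequal between the libraries. Tendon fibroblast markers had medians of -0.83 in Dicer cKO/Control and 0.23 in ScxHt/Control. All 12 had an interval below 1 in the former (all lines 27.1%). The list includes Scx, whose locus carries Cre in ScxHt and Dicer cKO, with ratios of 0.369 and 0.616 in these comparisons. The 6 endothelial markers were lowest in ScxHt, like the respiratory chain genes, with summed normalized counts of 9765 in Control, 6534 in ScxHt and 10984 in Dicer cKO. The 6 macrophage markers were highest in ScxHt, with 3654, 6331 and 2803. Of the Schwann cell markers, the myelin genes Mbp, with 195, 183 and 1403 reads, and Pmp22, with 3096, 4103 and 4001, both had their highest normalized count in Dicer cKO. The 5 erythroid markers summed to 3061, 2885 and 7205, and the 7 adipocyte markers to 18061, 19721 and 19682. Of the 4 brown adipocyte markers, Ucp1 and Elovl3 were at 0 in all 3 libraries, Cidea had 7, 5 and 3 reads and Prdm16 174, 173 and 216. The part of these cell types in the result was not tested, and genotype and tissue composition cannot be told apart with 1 library each.

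The Spearman coefficient between gene length and ratio over the 89 genes was -0.02 in Dicer cKO/Control, -0.11 in ScxHt/Control and 0.03 in Dicer cKO/ScxHt. Of the 88 members found in the annotation by symbol, 33 have exons that overlap those of another gene, 30 of them on the other strand, and the reads of pairs on opposite strands cannot be told apart without a known strand setting. Among the genes named above, an overlap on the other strand holds for Atp5a1, Atp5d, Atp5f1, Atp5l, Cox4i1, Cox5a, Cox6a2, Cox6c, Ndufa13, Ndufa2, Ndufa4l2, Ndufaf3, Ndufs1, Ndufs3, Sdhaf1, Sdhaf2 and Uqcrc2. Atp5g2 and Ndufb9 overlap another gene on their own strand, which no strand setting would separate.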

How the data were processed

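RNA-seq of the Achilles tendon covered 3 libraries, 1 per genotype. The authors removed adaptors, mapped reads to GRCm38 (mm10) with TopHat and Bowtie2, assigned them to genes with HTSeq and deposited raw read counts per gene, not normalized. They also deposited RPKM values for each library, which scale the same counts by feature length and library total and were used here for lengths and for levels between genes. DESeq2 is also named in the submitters' processing notes. Versions, the annotation release and the strand setting are not given in the sources used here. The small RNA-seq files hold none of these genes and were not used.

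The table has 54189 lines, of which 463 repeat an earlier name and counts and were removed. Atp5a1 and Uqcrc1 each have a second, nearly equal line, and the one with more reads was used. Counts were divided by DESeq2 1.42.0 size factors over the 3 libraries (R 4.3.3), without shrinkage or dispersion model. Ratios were counted as higher above 1.67 and lower below 0.60, with Clopper-Pearson 95% intervals (scipy 1.17.1, numpy 2.4.6, pandas 2.3.3, Python 3.11.15) that cover counting error only, since reads are not independent molecules. An isoform share divides each gene's reads by its length. The procedure was run on simulated counts with counting error only and no spread between mice, so that run cannot speak to the spread between mice. Figures were drawn with matplotlib 3.10.9.

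The genes and lists were chosen with earlier results of these data known. Genes named are in each complex the 2 members with the highest and the 2 with the lowest ratio in Dicer cKO/Control, the isoform families, the complex I core, Sdh and F1 subunits, members past 1.67 or 0.60 in any comparison, the 5 highest RPKM values per library, and from other lists the top and bottom ratio and the defining markers. Others are marked or were named to complete a group after their values were seen. Promoter windows come from RefSeq on GRCm38.p6 and positions from GENCODE vM21. Cox6a2 has no promoter entry. The alternatives were pairwise size factors, edgeR 4.0.16 TMM, total counts with and without features above 1%, minimum means of 10, 200 or none, a pseudocount of 1, subunits only, ratio limits of 2 and 0.5, and the whole interval past the limit. The values of some genes on the lists, although counted in the totals and medians, are not reported here.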

Additional observations from a re-analysis of the deposited data

How the results depend on the processing

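No paired analysis was possible because each genotype had 1 library, and no library could be left out. Of 252 values under the alternatives, 224 were taken as unchanged, and no median changed sign. For counts this meant within 1.5 times, and for shares inside the counting interval. For medians it meant a shift below the median half-width of the single-gene counting intervals, 0.22 (log2) for the members in ScxHt/Control. That width belongs to single genes and is not the counting error of a median, so stability of the medians within their own error is not shown. Total counts moved the ScxHt/Control median of all lines by 0.12 (log2) and gave 33 members above 1 in place of 19, and 2 past the upper limit in place of 0. The members' median was then -0.10 in place of -0.22. A minimum mean of 10, or none, gave 3 members past the upper limit in ScxHt/Control and a complex II median of 0.041 for Dicer cKO/Control, since genes with few reads then enter. A minimum mean of 200 removed Cox6a2 and Cox7a1, which left 0 members below 0.60 in ScxHt/Control, with 12 above 1, a complex III median of -0.39, 12 past the upper limit in Dicer cKO/ScxHt and a complex II median of 0.59 there. With limits of 2 and 0.5, members above were 0 for Dicer cKO/Control and 6 for Dicer cKO/ScxHt. With the whole interval past the limit they were 0 and 10, and 1 member was below in ScxHt/Control. Without Ndufa4l2 and Cox4i2, chosen after the data were seen, the members' medians were 0.30, -0.22 and 0.59. Without the length correction, the shares in Control, ScxHt and Dicer cKO were 39.3%, 23.1% and 39.1% for Cox7a1, 64.0%, 50.1% and 74.1% for Cox8b, 28.1%, 29.0% and 17.1% for Cox4i2, and 90.2%, 93.7% and 84.1% for Ndufa4l2, with the same library lowest. Depth limits the genes with fewest reads, and no interval covers the spread between mice.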
